A study of Mus musculus with 6 samples.

Results

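The fibroblast growth factor (FGF) genes described here are 5 ligand genes, Fgf4, Fgf5, Fgf8, Fgf15 and Fgf17, and 5 receptor genes, Fgfr1, Fgfr2, Fgfr3, Fgfr4 and Fgfrl1. They were chosen by gene symbol, and all 10 were found among 18193 genes with a named probe set, through 25 of 34945 probe sets that carry a single symbol. RNA abundance was read on 6 Affymetrix mouse arrays, on which each probe set is a group of short oligonucleotides against a transcript. All arrays came from R1 mouse embryonic stem cells that carried a lentivirus with a short hairpin RNA (shRNA) and were sorted for GFP. In the 3 control arrays the shRNA was directed at luciferase, a gene mouse cells lack, and in the other 3 it was shRNA1 against KIAA1718, the histone demethylase encoded by Kdm7a. The arrays thus set transcript levels after 1 KIAA1718 shRNA against those after 1 control shRNA, and no second shRNA against KIAA1718 was analysed here. Since the labels do not name separate infections or cultures, a p-value here reflects no more than array-to-array spread, part of which may be technical.

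FGF ligands are secreted proteins that bind a receptor tyrosine kinase together with heparan sulphate on the cell surface. The receptor then passes the signal through adaptor proteins to Ras and the ERK kinase cascade. Embryonic stem cells make FGF4 and respond to it themselves, and this signal prepares them to leave the naive state. FGF5 is a marker of the primed epiblast, the state that follows, and FGF8 is made during gastrulation.

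The arrays had median signals between 9.58 and 13.3 and correlated at 0.983 to 0.989 within groups and 0.977 to 0.985 between groups. Control spikes lay 5.25 (log2) above the median signal on KIAA1718 replicate 2 and 5.62 to 5.83 above it on the other 5 arrays. Kdm7a itself did not pass the test (log2 difference -0.20 ± 0.15 SE, limma adjusted p = 0.534), so the target gives no check of the labels, and "KIAA1718 arrays" means the arrays labelled so. Embryonic stem cell markers were abundant in both groups, with Sox2 at 1412 ± 202 and 1422 ± 94.2 and Pou5f1 at 1095 ± 31.3 and 1056 ± 124 (SD, n = 3). The summed normalized signal of 10 such markers was 13741 to 13909 on luciferase arrays and 12133 to 12736 on KIAA1718 arrays, with Esrrb and Utf1 the 2 that passed, both lower (3 with replicates paired in a block). In all, 614 of 12742 tested genes changed, 337 higher and 277 lower, as did 993 of 27022 tested probe sets.

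The promoters of Fgf4, Fgf5 and Fgfrl1 are shown because these are the ligand that fell and the next members by p-value with a promoter entry. They run from 250 bases before to 50 bases after the annotated start, from RefSeq on GRCm38.p6, where 6 of the 10 genes had an entry. All 3 lie on the plus strand, Fgf4 at chr7:144861136-144861435, Fgf5 at chr5:98253934-98254233 and Fgfrl1 at chr5:108693979-108694278. Capitals mark the TATA element, searched as TATAAA and as TATATA, and the GC box, searched as GGGCGG, on both strands.

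Fgf4: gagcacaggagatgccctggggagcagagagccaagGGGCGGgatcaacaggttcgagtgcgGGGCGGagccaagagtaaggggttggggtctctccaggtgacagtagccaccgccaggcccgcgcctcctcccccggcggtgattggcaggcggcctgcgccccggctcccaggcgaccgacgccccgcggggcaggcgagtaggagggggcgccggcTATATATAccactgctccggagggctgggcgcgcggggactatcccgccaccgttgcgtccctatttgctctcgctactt
Fgf5: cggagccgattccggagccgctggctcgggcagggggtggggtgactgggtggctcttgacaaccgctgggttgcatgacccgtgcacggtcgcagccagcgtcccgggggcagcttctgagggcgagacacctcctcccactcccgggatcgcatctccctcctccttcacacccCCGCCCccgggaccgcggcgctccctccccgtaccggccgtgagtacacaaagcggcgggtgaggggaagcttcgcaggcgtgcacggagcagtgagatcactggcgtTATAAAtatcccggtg
Fgfrl1: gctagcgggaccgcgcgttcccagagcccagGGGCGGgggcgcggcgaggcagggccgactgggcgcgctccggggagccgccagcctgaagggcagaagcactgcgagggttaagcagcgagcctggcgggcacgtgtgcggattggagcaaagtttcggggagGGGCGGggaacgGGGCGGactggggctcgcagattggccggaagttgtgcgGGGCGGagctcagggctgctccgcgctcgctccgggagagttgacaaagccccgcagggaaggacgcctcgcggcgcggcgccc

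The Fgf4 promoter held 2 overlapping matches to TATATA, the first beginning 30 bases before the start, and 2 GC boxes. TATATA was present in 5.67% of 32851 promoters of the same length and GGGCGG in 35.7%. The Fgf5 window held TATAAA, which 13.6% of promoters have, beginning 34 bases after the annotated start, and 1 GC box on the minus strand. Fgfrl1 held 4 GC boxes and neither TATA form. The core letters GGAA of ETS factor sites, searched on both strands, were present in 96.0% of promoters, with 2 matches in Fgf5, 4 in Fgfrl1 and 0 in Fgf4. These matches describe the letters of the windows only.

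Of the 10 genes, each represented by its brightest probe set, Fgf4 fell, Fgf8 rose and the other 8 did not pass. Fgf8 was dim on luciferase arrays and was bright enough to be tested only through the KIAA1718 arrays. With no filter on dim probe sets the count was also 2. Across all tested genes 4.82% passed, 2.64% higher and 2.17% lower. The median difference of the 10 genes was 0.0038 on the log2(signal + 16) scale, against 9.7e-05 for all tested genes, and 5 of the 10 were above 0. By single probe sets, 3 of 19 tested passed, 2 of Fgf4 and 1 of Fgf8, where 3.67% of all tested probe sets did. After normalization, groups did not overlap for 4 of the 10, Fgf4, Fgf8, Fgfr2 and Fgfrl1, against 27.9% of all genes. The count of 2 was 1, Fgf4, without luciferase replicate 3 or without KIAA1718 replicate 3. It was 4, 3 of them higher, without luciferase replicate 2 or when arrays of equal number were paired in a block, where 7.89% of all genes passed. Because these are bulk samples, fewer cells of a type and less RNA per cell cannot be told apart.

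**Figure D1:**
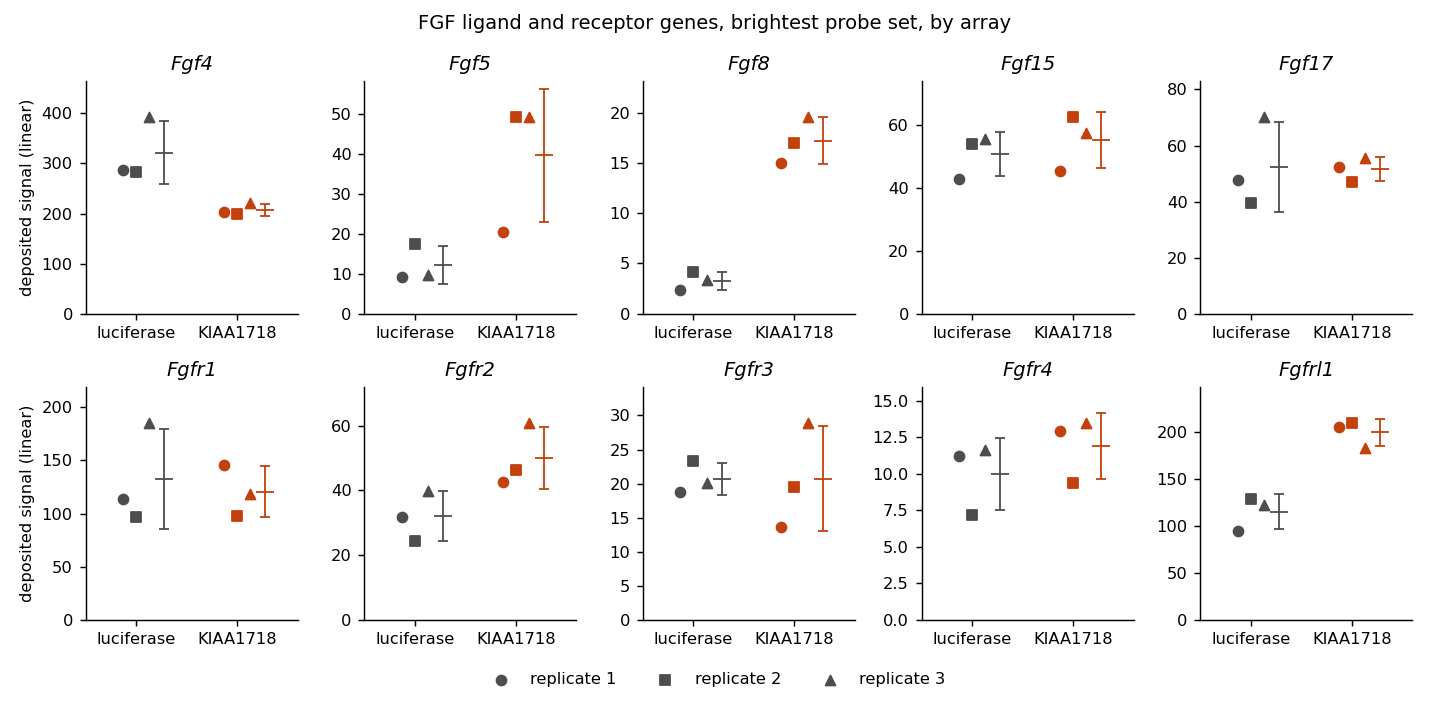
Deposited linear signal of the brightest probe set of each gene on the 3 luciferase and 3 KIAA1718 shRNA1 arrays, with symbols for the replicate number and a bar for the mean and SD of each group (n = 3). Fgf4 sits at 283 to 394 on luciferase arrays and 198 to 220 on KIAA1718 arrays, while Fgf8 goes from 2.31 to 4.11 up to 15.0 to 19.6.

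Fgf4 (Entrez gene 14175, chromosome 7) gave deposited signals of 287, 283 and 394 on luciferase replicates 1, 2 and 3 and of 204, 198 and 220 on the KIAA1718 arrays (probe set 1420085_at). Every KIAA1718 array lay below every luciferase array. The log2 difference was -0.72 ± 0.10 (SE), a 1.65-fold decrease (95% interval -0.94 to -0.50, limma adjusted p = 0.00332). A second probe set designed from the same expressed sequence, 1420086_x_at, gave 296, 317 and 373 against 198, 185 and 199, again without overlap. Its difference was -0.84 ± 0.11 (limma adjusted p = 0.00193). Names ending in _x_at mark probe sets in which some probes may match other transcripts. Left unscaled between arrays, all genes had a median difference of 0.11 and the first Fgf4 probe set one of -0.58, with a limma adjusted p of 0.0927. The second passed under all 16 alternatives (highest limma adjusted p 0.0246).

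The remaining Fgf4 probe sets did not show this fall. Probe set 1450282_at, designed from the RefSeq mRNA NM_010202, had signals of 41.0, 26.4 and 53.9 on luciferase arrays and 39.4, 36.1 and 38.0 on KIAA1718 arrays. All 3 KIAA1718 values lay inside the range of the luciferase values. The difference was -0.13 ± 0.15 with a 95% interval of -0.46 to 0.19 (limma adjusted p = 0.685). Within each array, the brightest Fgf4 probe set exceeded this one by 2.62 ± 0.246 (log2) on luciferase arrays and by 2.03 ± 0.0602 on KIAA1718 arrays (SD, n = 3). The groups did not overlap, and the exact permutation p was 0.1, the smallest that 3 against 3 arrays allow, for a pair of probe sets chosen with their values known. The fourth probe set, 1449729_at, was too dim to be tested. It cites the same expressed sequence as the 2 bright ones, on which the fall of Fgf4 rests.

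By the distance between their deviations over the 6 arrays, the genes most like Fgf4 were Mcf2, Nufip1, Aff1, Ppp2r5a and Irak1. Their root mean square distances were 0.0403 to 0.0716 (log2) against a median of 0.392 over 12741 genes. Since they were picked by this distance, the small distances and the fall they share with Fgf4 follow from the choice. Mcf2, a guanine nucleotide exchange factor gene, went from 88.4 ± 20.2 to 48.1 ± 3.47 and Ppp2r5a, a regulatory subunit gene of protein phosphatase 2A, from 622 ± 115 to 380 ± 10.2 (SD, n = 3).

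Fgf5 (Entrez gene 14176, chromosome 5), of the same FGF subfamily as Fgf4, had signals of 9.15, 17.6 and 9.59 on luciferase arrays and 20.5, 49.4 and 49.2 on KIAA1718 arrays (1438883_at). KIAA1718 replicate 1 was the lowest of its group and luciferase replicate 2 the highest of its own, and after normalization these 2 arrays were level, so that the groups just overlapped (both 5.21 on the log2 scale). The difference was 0.84 ± 0.22 with a 95% interval of 0.37 to 1.32, and it did not pass (limma adjusted p = 0.0556). It passed with the pairing block (limma adjusted p = 0.0109), with unscaled or median-scaled values, and without luciferase replicate 2 or KIAA1718 replicate 1 (adjusted p = 0.0436 and 0.0163). Without 1 array its difference ran from 0.69 to 1.09, and with pseudocounts of 64 and 1 it was 0.38 and 1.42. The dimmer probe set 1426186_a_at had signals of 0.522, 5.44 and 5.12 against 5.54, 15.0 and 16.7 (0.46 ± 0.17, limma adjusted p = 0.172), with KIAA1718 replicate 1 again lowest in its group, and it exceeded the limit on dim probe sets only through the KIAA1718 arrays.

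Set against each other within each array, Fgf5 minus Fgf4 was -3.64, -3.24 and -3.92 (log2) on luciferase arrays and -2.59, -1.68 and -1.83 on KIAA1718 arrays. The change of 1.56 between the group means was the same in sign under every alternative run, from 1.00 to 2.19. Its exact permutation p was 0.1, again the smallest possible. The pair was chosen with its values known, so this describes an unequal change and adds no support.

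Fgf8 (Entrez gene 14179, chromosome 19), a ligand of gastrulation and of brain and limb patterning, was low throughout. Its only probe set, 1451882_a_at, had signals of 2.31, 4.11 and 3.35 on luciferase arrays and 15.0, 17.0 and 19.6 on KIAA1718 arrays. The luciferase values lay below the median signal of their arrays and the KIAA1718 values above it. The difference was 0.72 ± 0.13 with a 95% interval of 0.45 to 1.00 (limma adjusted p = 0.0113). The gene exceeded the limit on dim probe sets, 4.49 on this scale, only through the KIAA1718 arrays, at 5.01 against 4.29 on luciferase arrays. With all probe sets kept it still passed (limma adjusted p = 0.0378). The size depends on the pseudocount, from 0.25 with 64 to 1.95 with 1, and the call was lost without luciferase replicate 3 (adjusted p = 0.0614) and without KIAA1718 replicate 3 (adjusted p = 0.0551).

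Fgf17 (Entrez gene 14171), of the same subfamily as Fgf8, did not pass. Signals were 47.8, 39.3 and 70.4 on luciferase arrays and 52.3, 47.0 and 55.6 on KIAA1718 arrays (1421523_at), with every KIAA1718 value inside the luciferase range. Its difference was -0.09 ± 0.13 (limma adjusted p = 0.758), and 0.0056 with unscaled values. The second probe set, 1456239_at, gave 19.6, 24.5 and 37.4 against 17.6, 18.2 and 25.2 (-0.33 ± 0.14, limma adjusted p = 0.215).

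Fgf15 (Entrez gene 14170), the mouse counterpart of the endocrine ligand FGF19, had signals of 42.9, 54.1 and 55.8 on luciferase arrays and 45.5, 62.9 and 57.6 on KIAA1718 arrays. The groups overlapped. Its difference was -0.02 with a 95% interval of -0.33 to 0.29 (limma adjusted p = 0.954), and 0.089 with unscaled values.

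**Figure D2:**
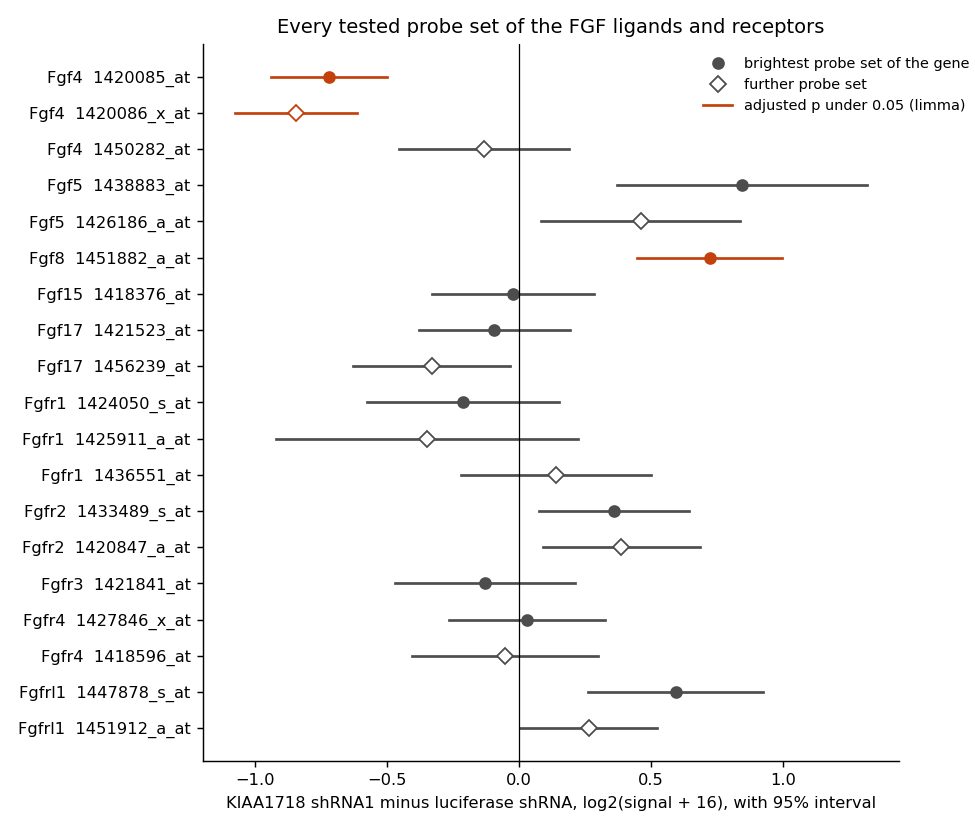
Difference between KIAA1718 shRNA1 and luciferase shRNA arrays on the log2(signal + 16) scale, with its 95% interval, for each of the 19 tested probe sets of the 10 genes. Filled circles are the brightest probe set of a gene and open diamonds the further ones. The 2 upper Fgf4 probe sets (-0.72 and -0.84) and Fgf8 (0.72) are in colour as past the threshold, and the third Fgf4 probe set (-0.13) is not.

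Among the receptors, Fgfr1, the main FGF receptor gene of embryonic stem cells, did not pass, and its probe sets disagreed in sign. Probe set 1424050_s_at had signals of 114, 97.1 and 186 on luciferase arrays and 146, 98.1 and 119 on KIAA1718 arrays, overlapping groups with luciferase replicate 3 the highest of all. Its difference was -0.21 ± 0.17 (limma adjusted p = 0.544). Names ending in _s_at mark probe sets whose probes are shared by several transcripts. With 1425911_a_at, KIAA1718 replicate 2 stood apart at 30.9 against 78.1 and 103 on the other KIAA1718 arrays. It is also the array with the lowest control spikes over the median, but a link between the spikes and this value was not tested. The difference was -0.35 ± 0.26 with that array and 0.034 without it. Without it, 1424050_s_at differed by -0.10. The third, 1436551_at, gave 24.3, 17.9 and 22.9 against 30.7, 34.5 and 21.1 (0.14 ± 0.16, limma adjusted p = 0.712). For the brightest the 95% interval was -0.58 to 0.15.

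Fgfr2, which in the early embryo is typical of trophectoderm and primitive endoderm, was higher on every KIAA1718 array with both tested probe sets, but did not pass. With 1433489_s_at the signals were 31.9, 24.3 and 39.7 on luciferase and 42.6, 46.3 and 60.9 on KIAA1718 arrays. The difference was 0.36 ± 0.13 with a 95% interval of 0.08 to 0.64 (limma adjusted p = 0.158). With 1420847_a_at they were 16.5, 9.84 and 20.3 against 26.0, 25.4 and 31.1 (0.39 ± 0.14, limma adjusted p = 0.149). Neither probe set passed under any alternative run (lowest limma adjusted p 0.121 and 0.116), nor did the mean of the 2 (0.37, adjusted p = 0.0598).

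Fgfr3 and Fgfr4 were dim and did not pass. Fgfr3, known for restraining bone growth, had signals of 18.7, 23.3 and 20.1 on luciferase arrays and 13.6, 19.6 and 28.9 on KIAA1718 arrays (1421841_at, -0.13 ± 0.16, limma adjusted p = 0.718). KIAA1718 replicate 1 lay below all luciferase arrays and replicate 3 above them. Fgfr4, the receptor through which FGF19-type ligands act on liver, ran from 7.15 to 11.6 and from 9.36 to 13.5 (1427846_x_at, 0.031, limma adjusted p = 0.933). Its other tested probe set differed by -0.05, and by 0.024 with unscaled values. Of the 25 probe sets of the 10 genes, 6 were too dim to be tested, with signals of 0.149 to 10.6. They were 1 each of Fgf4, Fgfr2 and Fgfr3 and 3 of Fgfr4.

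Fgfrl1 (Entrez gene 116701, chromosome 5) encodes a receptor that binds FGF but lacks the kinase domain. Its signals were 94.6, 129 and 123 on luciferase arrays and 206, 210 and 183 on KIAA1718 arrays (1447878_s_at). All KIAA1718 arrays lay above all luciferase arrays, also after normalization, where this held for 14.5% of all tested genes. The difference was 0.59 ± 0.15, a 1.51-fold change with a 95% interval of 0.26 to 0.92, and it did not pass (limma adjusted p = 0.0547). The call changed with small choices: it passed with the pairing block (limma adjusted p = 0.0193), with unscaled values (0.0325) and without luciferase replicate 2 (0.0248). It also passed with the dimmest 60% left out (0.0482), with a robust variance model (0.0455) and as the mean of its probe sets (0.43, limma adjusted p = 0.0312). Without 1 array its difference ran from 0.51 to 0.75. The dimmer probe set 1451912_a_at gave 35.9, 32.9 and 43.1 against 50.1, 49.2 and 58.7, also without overlap (0.26 ± 0.12, limma adjusted p = 0.257).

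**Figure D3:**
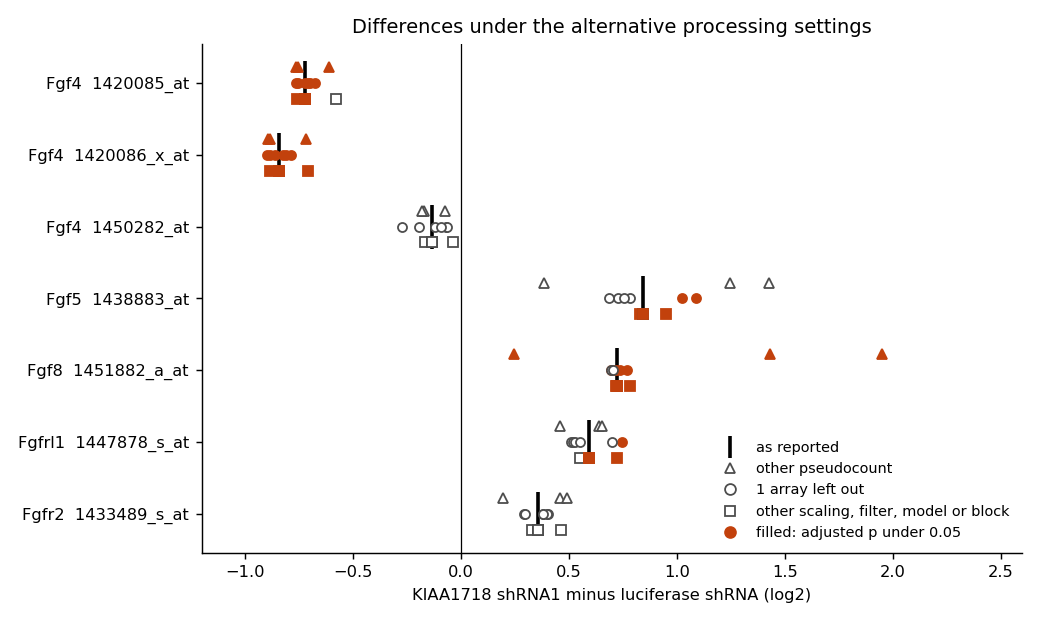
Differences (log2) of 7 probe sets as reported (black line) and under the alternatives, grouped by rows into other pseudocounts (triangles), 1 array left out (circles) and other scaling, filter, model or block (squares), filled where the adjusted p was under 0.05. The 2 upper Fgf4 probe sets stay between -0.90 and -0.58, whereas Fgf8 spreads from 0.25 to 1.95 with the pseudocount.

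The other genes of the pathway were taken from 4 lists of 100 genes, of which 90 had a named probe set and 75 were tested. Of these, 2 rose and 4 fell, against 4.82% of all genes, and the median difference was -0.06 against 9.7e-05. The 6 were Fgfbp1, Extl3, Dusp9, Etv4, Dusp4 and Myc. With unscaled values, without luciferase replicate 3 or without KIAA1718 replicate 3, 2 passed, 1 higher and 1 lower. Without luciferase replicate 2, without KIAA1718 replicate 1 or with no filter on dim probe sets, 3 passed.

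Of 17 listed ligand genes outside the chosen 5, 10 were too dim to be tested and none of the other 7 passed (limma). For 1 of the 7 the unadjusted p was under 0.05, and the share of all genes at that cutoff was not taken. The median was -0.10. Fgf13, an intracellular FGF homologue that is not secreted, was nearest, at 59.0 ± 18.4 against 81.8 ± 14.7 (SD, n = 3, limma adjusted p = 0.266). Fgf7, a ligand made by mesenchyme, differed by -0.17 (limma adjusted p = 0.68).

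Among binding proteins, coreceptors and the enzymes that make heparan sulphate, 1 of 26 tested genes rose and 1 fell. Of all genes 2.64% rose and 2.17% fell. The one that rose was Fgfbp1, which encodes a secreted protein that carries FGFs away from the matrix. Its signals were 49.4, 27.9 and 49.3 on luciferase arrays and 115, 135 and 130 on KIAA1718 arrays (1419086_at). The groups lay far apart, and the difference of 1.21 ± 0.15 (95% interval 0.88 to 1.54, limma adjusted p = 0.00193) passed under all 16 alternatives run, from 0.78 to 1.47. Extl3, a glycosyltransferase gene of heparan sulphate synthesis, fell by 0.51 on the log2 scale, with signals of 115 ± 16.6 and 83.8 ± 15.6 (SD, n = 3; limma adjusted p = 0.0490). That call was lost in 11 of 16 alternatives, with every single array left out among them. The dimmer Extl3 probe set 1421339_at did not pass (-0.16 ± 0.13, limma adjusted p = 0.562). Of the 26 genes 6 were above 0 and the median was -0.14. After normalization, groups did not overlap for 9 lower genes, against 13.4% of all genes, and for 2 higher ones, against 14.5%. On the deposited signals they did not overlap for 1 lower gene, Extl3, and 2 higher ones, so the 9 depend on the scaling between arrays. Unscaled values of all genes were shifted upward on KIAA1718 arrays (median difference 0.11). The share of all genes without overlap on deposited signals was not taken, so these counts have no background to be set against.

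No gene of the cascade from receptor to ERK passed among 16 tested (limma), and the median was -0.0017. An unadjusted p under 0.05 was seen for 2 of the 16, a count with no share of all genes to set it against. With the pairing block 1 passed, where 7.89% of all genes did. Gab1, a docking protein gene downstream of FGF receptors, was nearest. Its signals were 819, 609 and 730 on luciferase arrays and 1059, 918 and 1056 on KIAA1718 arrays (1417694_at, 0.38 ± 0.11, limma adjusted p = 0.0817, 0.0181 with the block and 0.0351 without luciferase replicate 1). Its second probe set, 1417693_a_at, was just past the threshold (0.51 ± 0.13, limma adjusted p = 0.0496). Nras, a Ras gene, differed by 0.28 ± 0.11 (limma adjusted p = 0.210).

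Of 26 tested feedback and target genes of ERK, 3 fell and 1 rose, against 2.17% and 2.64% of all genes, with a median of -0.07. Dusp9, which encodes a phosphatase that inactivates ERK, fell furthest. Its signals were 200.2, 173 and 289 on luciferase arrays and 109, 94.0 and 113 on KIAA1718 arrays (1454737_at). No array of one group reached the other, and the difference was -1.08 ± 0.12 (95% interval -1.35 to -0.80, limma adjusted p = 0.00120). Its 2 further probe sets fell as well, by 1.11 and 0.74 (limma adjusted p = 0.00136 and 0.0155), and the brightest passed under all 16 alternatives. The further ones, the first of them an _x_at set, cite the same expressed sequence as the brightest and are not independent of it. Etv4, an ETS transcription factor gene that responds to FGF, went from 199, 176 and 235 to 145, 123 and 144 (-0.65 ± 0.11, limma adjusted p = 0.0112). It lost its call in 3 of 16 alternatives, those without luciferase replicate 3 or KIAA1718 replicate 3 among them (adjusted p = 0.0586 and 0.0576). The dimmer Etv4 probe set 1443381_at had overlapping groups and did not pass (-0.30 ± 0.16, limma adjusted p = 0.348). Dusp4, a phosphatase gene for ERK in the nucleus, moved the opposite way, from 65.5 ± 9.09 to 118 ± 28.1 (SD, n = 3, 0.58 ± 0.13, limma adjusted p = 0.0340), and lost its call in 7 of 16. Leaving out any array but KIAA1718 replicate 2 was enough, with adjusted p from 0.0534 to 0.138. Myc, a transcription factor gene for growth, fell by 0.46 on the log2 scale, from signals of 254 ± 40.1 to 201 ± 25.1 (SD, n = 3; limma adjusted p = 0.0326), a call lost in 9 of 16, with every single array left out among them. Other genes that respond to FGF did not pass, among them Dusp6 at 0.13, Etv5 at -0.08 and Spry4 at -0.19. Egr1, an immediate early transcription factor gene, differed by 0.36 ± 0.15 and did not pass (limma adjusted p = 0.224), but did with the pairing block (limma adjusted p = 0.0346). Dusp6, Etv5, Spry4 and Egr1 were named after their values were seen.

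**Figure D4:**
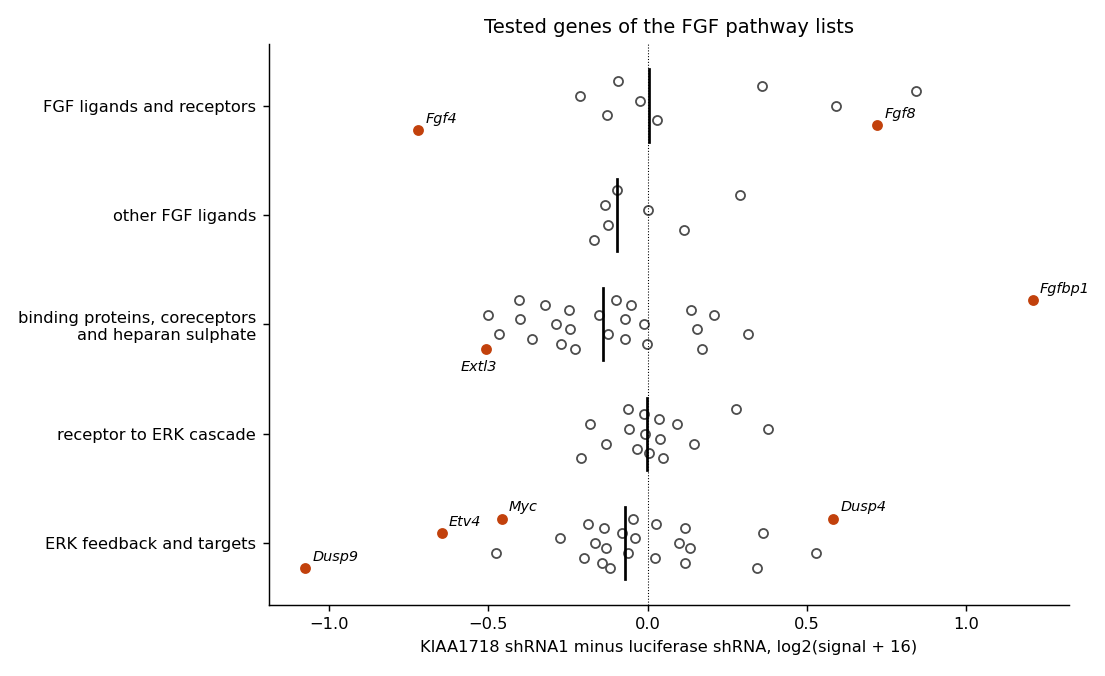
Difference between KIAA1718 shRNA1 and luciferase shRNA arrays, log2(signal + 16), for each tested gene of the FGF ligands and receptors and of 4 lists of the pathway, 1 circle a gene at its brightest probe set and a line at each list's median. Filled, named circles passed the threshold: Fgf4 and Fgf8 among the 10 ligands and receptors, and Fgfbp1 (1.21) and Dusp9 (-1.08) at the outer ends of the lists.

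Markers of other cell types varied alongside. The summed normalized signal of 14 primitive endoderm markers was 1372 to 1809 on luciferase arrays and 1178 to 1230 on KIAA1718 arrays. Of the 14, 5 were lower (Pdgfra, Sox7, Dab2, Lama1 and Srgn), against 2.17% of all genes. The other transcription factor genes, Gata6 (-0.31, limma adjusted p = 0.440), Gata4 (-0.24, 0.428), Sox17 (-0.03, 0.944) and Foxa2 (-0.00068, 0.999), were dim and did not pass. Col4a1 and Lamb1 had the highest signals of the 14 and did not pass. The summed signal of 11 primed epiblast markers other than Fgf5 was 2047 to 2386 on luciferase arrays and 2916 to 3101 on KIAA1718 arrays. Of these, 3 were higher (Pou3f1, Dnmt3b and Pim2) and 1 lower (Etv4), against 2.64% and 2.17% of all genes. Dnmt3b, the brightest of them, went from 745 ± 91.5 to 1412 ± 100 (SD, n = 3), and the sum rose largely through this gene. Lef1 (0.49, limma adjusted p = 0.157), Otx2 (0.26, 0.358) and Dnmt3a (-0.31, 0.157) were among those that did not pass. Dnmt3a was lower without overlap after normalization. Fibroblast markers, 18 of them, summed to 6795, 11474 and 11402 on luciferase replicates 1, 2 and 3 and to 6385, 8463 and 8446 on the KIAA1718 arrays. Replicate 1 was the lowest in each group, the groups overlapped, and 1 marker passed, lower, against 2.17% of all genes. It was Pdgfra, which is also on the primitive endoderm list. With the pairing block 9 passed, all lower, where 7.89% of all genes passed in either direction. Trophectoderm markers, 10 of them, summed to 448 to 566 on luciferase arrays and 635 to 999 on KIAA1718 arrays. Among them Krt8 (94.8 ± 15.8 to 287 ± 106) and Krt18 (76.2 ± 17.4 to 188 ± 37.2) were higher, against 2.64% of all genes. The sum rose largely through these genes. Cdx2 (0.31, limma adjusted p = 0.357), Eomes (0.19, 0.548) and Tfap2c (0.014, 0.908) were among those that did not pass. Elf5 and Gata3 were too dim to be tested, with Gata3 at 0.493 ± 0.327 and 0.306 ± 0.160 (SD, n = 3). No marker was at 0. The part of these cell types in the values of Fgf4, Fgf5, Fgfr1 and Fgfr2 was not tested.

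**Figure D5:**
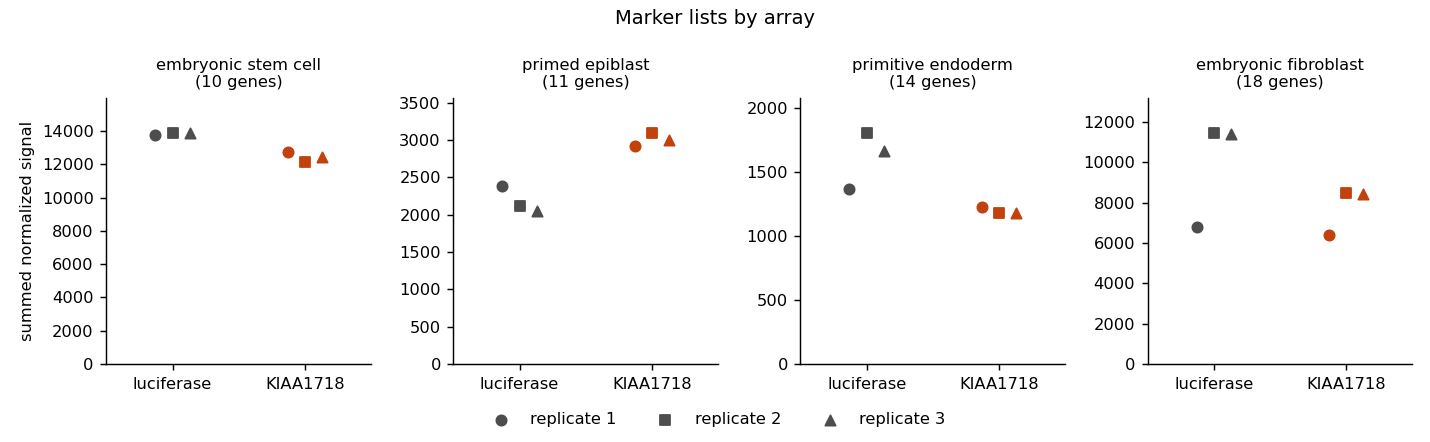
Summed quantile-normalized signal of 4 marker lists on each of the 6 arrays, with symbols for the replicate number. The sum of primitive endoderm markers is lower on all KIAA1718 arrays (1178 to 1230) than on luciferase arrays (1372 to 1809). That of fibroblast markers is lowest on replicate 1 of each group (6795 and 6385).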

How the data were processed

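RNA of R1 mouse embryonic stem cells was hybridised to 6 Affymetrix arrays, 3 per group, grouped by the sample titles. The deposited values are the authors' linear signal intensity per probe set. The submitters' processing notes name GCOS as software; which version, algorithm or scaling target was used is not given in the sources used here. Means of each array's signals, trimmed by 2% at both ends, lay between 61.3 and 81.2, so signals were quantile-normalized. Signals in the text are the deposited ones; differences come from log2(normalized signal + 16) and understate changes of dim genes. After removal of 64 control probe sets and of the dimmest 40% (mean of 6 arrays), 27022 probe sets remained. The test was limma's (version 3.58.1, R 4.3.3): lmFit and two-sided eBayes with a trend on intensity. P-values were adjusted by Benjamini-Hochberg over those probe sets, at a threshold of 0.05. The procedure was tested on simulated data. Symbols were updated through Entrez numbers with a RefSeq table of GRCm38.p6, which also gave chromosomes; 932 probe sets with several symbols and 9160 without one are unnamed here. A gene is represented by its brightest tested probe set. Named are all 10 ligand and receptor genes, the target, in each list up to 4 changed members ranked by size of change (where fewer than 2 changed, the 2 lowest p-values), and the 5 genes nearest to Fgf4. The members and lists were chosen with earlier results of these data known. Both groups use replicate numbers 1 to 3. Arrays of equal number deviated together from their group means (r = 0.203, 0.125 and 0.132) and those of unequal number did not (-0.150 to 0.0235). Since deviations from a group mean cancel out, positive values at equal numbers push the others down, so the contrast is not independent. Numbers were taken as pairs in the block fit only, and the main fit is unpaired. This pairing comes from the data, not the labels, and the value with it as a block is printed where a call changes. Alternatives covered scaling, pseudocount, filter, variance model, block, probe set rule and leaving out arrays. The number of arrays limits the precision.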

Additional observations from a re-analysis of the deposited data

How the results depend on the processing

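Fgf4 by either bright probe set, Fgf8, Fgf5, Fgfrl1 and Fgfr2 kept their direction under every alternative run, and their calls are given beside each gene. The count of FGF ligand and receptor genes past the threshold, 2, was 4 with the replicate block and 1 to 4 without 1 array; leaving out replicate 2 of both groups, chosen after seeing the data, gave 1. With unscaled values it was 3, all higher. The count for the 4 pathway lists, 6, was 2 with unscaled values, 3 with no filter and 2 to 5 without 1 array. Of all 27022 probe sets, 993 changed (524 higher, 469 lower); the count was 570 with unscaled values (466 higher, 104 lower), 943 with median scaling (384 higher, 559 lower), 290 with no filter, 631 with no intensity trend, 1683 with the block and 247 to 824 without 1 array. Signs turned for 5 probe sets that passed in no setting run. With unscaled values Fgf15 was 0.089, Fgf17 0.0056 (1421523_at) and Fgfr4 0.024 (1418596_at). Without 1 array Fgf15 ran from -0.11 to 0.081, Fgfr1 (1425911_a_at) from -0.58 to 0.034, and Fgfr4 from -0.028 to 0.098 (1427846_x_at) and from -0.18 to 0.064 (1418596_at). In these fits the smaller group keeps 2 arrays. Beyond Fgf5, Fgfrl1 and Gab1, the block ended or made no call among the genes named by the rule; it also made 1 for Egr1. Signals near or below the array median, as for Fgf8, Fgfr3 and Fgfr4, limit what a difference on this scale can show.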
